A study of Homo sapiens with 9 samples.

Results

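The genes described here are 7 metallothioneins (MT1A, MT1E, MT1F, MT1G, MT1M, MT1X and MT2A), the zinc-sensing transcription factor MTF1 and the zinc exporter SLC30A1. They were chosen by name, 9 of the 61541 gene identifiers in the count tables, and each was found in all 9 libraries' tables. Metallothioneins are small cysteine-rich cytosolic proteins that bind zinc, copper and cadmium. When free zinc rises, MTF1 binds metal response elements in their promoters and in that of SLC30A1, so that more zinc is bound inside the cell and more is moved out through the plasma membrane. Several metallothionein genes also respond to glucocorticoids and to oxidative stress.

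The cells were H69 cholangiocytes, a human bile duct epithelial line transformed with SV40, labelled wild type. Cultures were seeded at 100000 cells, grown for 48 h, treated for 48 h and given fresh medium with treatment after 24 h. One group of 3 received recombinant laminin 511-E8 at 0.25 µg/cm2, an integrin-binding fragment of a basement membrane protein (Laminin511-E8). Another group of 3 received acetazolamide at 10 µM, an inhibitor of carbonic anhydrases, which are zinc enzymes (Acetazolamide). The 3 remaining cultures received 10 µl of DMSO (Ctrl). No DMSO volume is given for the laminin and acetazolamide cultures, so an effect of DMSO cannot be told apart from that of a treatment against Ctrl. No zinc or other metal treatment is described for any group. The cultures are called biological replicates, with no statement that they came from separate passages, and all come from 1 cell line, so that a p-value reflects how far these 9 cultures vary. Levels here are messenger RNA of whole cultures, relative to each library's total count, and give neither cell number nor total RNA per cell. A change in some cells cannot be told apart from a smaller change in all.

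Total counts ranged from 12529867 to 39518899 per library. Genes with a GC content under 40% were low together in Acetazolamide replicate 3 and Laminin511-E8 replicate 2, by medians of -0.55 and -0.36 on the log2 scale, and each comparison is therefore also given with that trend removed ("GC-corrected"). Ctrl replicate 2 had the largest share of mitochondrial counts, 16.2%, against 9.43% to 11.8% in the other 8 libraries. Of the cholangiocyte markers examined, KRT7, CD24, KRT19, EPCAM and SOX9 reached 10 counts in all 9 libraries, whereas SPP1 had 0 counts and CFTR and AQP1 had at most 4 counts in any library. Of 10 hepatocyte markers 2 passed the filter on low counts, APOB at 78.0 CPM and SERPINA1 at 24.7 CPM (counts scaled to a library total of 1000000), while ALB had 1 count in all.

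The promoters of MT2A, MT1X and SLC30A1 are shown because each held a match to the core of the element through which MTF1 acts. A match to the core does not by itself show a working element. The sequences are the 250 bases before the RefSeq gene start on GRCh38.p14, written on the strand of the gene. Capitals mark the core of the metal response element, searched as TGCACNC or TGCGCNC on either strand, so that a match on the other strand reads GNGTGCA or GNGCGCA. Promoters were matched for 4 of the 9 genes (MT2A, MT1X, SLC30A1 and MTF1).
MT2A, chr16:56608334-56608583, plus strand: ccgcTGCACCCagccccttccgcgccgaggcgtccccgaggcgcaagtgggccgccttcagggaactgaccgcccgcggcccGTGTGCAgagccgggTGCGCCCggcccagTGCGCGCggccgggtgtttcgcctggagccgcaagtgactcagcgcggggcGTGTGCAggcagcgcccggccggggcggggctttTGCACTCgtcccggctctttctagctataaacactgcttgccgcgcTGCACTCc
MT1X, chr16:56682220-56682469, plus strand: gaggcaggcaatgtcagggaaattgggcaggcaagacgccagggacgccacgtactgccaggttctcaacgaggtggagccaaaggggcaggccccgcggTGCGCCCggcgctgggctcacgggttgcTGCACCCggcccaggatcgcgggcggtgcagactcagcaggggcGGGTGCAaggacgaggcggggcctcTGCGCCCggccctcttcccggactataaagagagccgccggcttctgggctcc
SLC30A1, chr1:211579162-211579411, minus strand: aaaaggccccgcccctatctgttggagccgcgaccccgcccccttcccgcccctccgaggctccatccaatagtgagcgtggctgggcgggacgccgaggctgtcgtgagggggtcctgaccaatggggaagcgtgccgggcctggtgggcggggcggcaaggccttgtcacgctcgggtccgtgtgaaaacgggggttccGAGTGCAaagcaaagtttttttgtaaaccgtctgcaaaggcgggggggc

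The MT2A promoter held 7 core motifs, 5 on its own strand and 2 on the other. MT1X held 4, of which 3 lay on its own strand and 1 on the other, and SLC30A1 held 1, on the other strand. The MTF1 window (chr1:37859593-37859842, minus strand) held 0. Among 35116 RefSeq promoter windows of the same length, 24.8% held at least 1 core, 0.37% held at least 4 and 0.0313% held at least 7. The MT2A and MT1X windows therefore stand among the densest of all windows for this motif, and the SLC30A1 window has a number that 24.8% of windows reach. The gene coordinates given below do not share these RefSeq starts. The SLC30A1 window lies upstream of the gene end given below (211578742, minus strand) without reaching it, and the sequence between them was not searched. The MT2A window lies inside the gene coordinates given below. The motif numbers therefore describe these windows, and a low number does not describe the whole SLC30A1 promoter.

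MT2A (ENSG00000125148, chr16:56608199-56609497), the most widely expressed human metallothionein, gave the most counts of the family. It had 278.8, 433.8 and 274.7 CPM in Laminin511-E8 cultures, 256.3, 214.6 and 348.8 CPM in Acetazolamide cultures, and 205.0, 280.9 and 264.0 CPM in Ctrl cultures. The groups overlapped, and 1 laminin culture and 1 acetazolamide culture stood above the rest of their groups. MT1E (ENSG00000169715, chr16:56625475-56627112) had 218.4, 257.0 and 246.9 CPM in Laminin511-E8, 176.0, 203.4 and 201.3 CPM in Acetazolamide, and 195.3, 225.3 and 192.3 CPM in Ctrl. All 3 laminin cultures lay above all 3 acetazolamide cultures, while 1 Ctrl culture lay within the laminin range.

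MT1X (ENSG00000187193, chr16:56682424-56684196) is an inducible isoform with a 3-exon structure like that of the other members. It had 24.6, 31.5 and 27.8 CPM in Laminin511-E8 cultures, 19.5, 18.1 and 21.7 CPM in Acetazolamide cultures, and 16.7, 23.4 and 14.8 CPM in Ctrl cultures. The laminin cultures were above all others, by a narrow margin over Ctrl replicate 2. After TMM scaling, which corrects each total for its composition, that culture had 25.0 CPM and Laminin511-E8 replicate 1 had 24.8 CPM, so that the groups then overlapped. MT1M (ENSG00000205364, chr16:56632233-56633986) had 24.5, 33.1 and 25.3 CPM in Laminin511-E8, 23.4, 24.0 and 22.4 CPM in Acetazolamide, and 18.6, 18.2 and 20.5 CPM in Ctrl. Its 3 groups did not overlap in CPM and ran in the order laminin, acetazolamide, Ctrl. That order was lost with the GC trend removed, as the acetazolamide cultures ran between -0.49 and 0.40 in log2 deviation from the mean of 9 libraries and spanned all the others (0.20 to 0.38 in laminin and -0.36 to -0.15 in Ctrl).

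MT1A (ENSG00000205362, chr16:56638666-56640087) had 12.6, 16.9 and 12.3 CPM in Laminin511-E8 cultures, 9.38, 10.8 and 12.9 CPM in Acetazolamide cultures, and 8.67, 9.71 and 9.42 CPM in Ctrl cultures. Every laminin culture was above every Ctrl culture, and the acetazolamide cultures overlapped both. MT1F (ENSG00000198417, chr16:56657694-56660698) had 6.06, 6.68 and 5.14 CPM in Laminin511-E8, 4.33, 5.08 and 6.06 CPM in Acetazolamide, and 4.25, 6.18 and 5.03 CPM in Ctrl, with overlap between all groups. MT1G (ENSG00000125144, chr16:56666731-56668065, the only member here on the minus strand of that cluster) had 0, 13 and 12 counts in Laminin511-E8, 13, 11 and 5 counts in Acetazolamide, and 11, 3 and 4 counts in Ctrl. It did not pass the filter on low counts, so 8 of the 9 genes were tested. The 0 in Laminin511-E8 replicate 1 allows up to 0.172 CPM, counting error only.

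MTF1 (ENSG00000188786, chr1:37809567-37859620) was the steadiest of the 8 genes tested. It had 31.6, 40.8 and 35.0 CPM in Laminin511-E8 cultures, 34.8, 36.5 and 35.7 CPM in Acetazolamide cultures, and 33.6, 32.4 and 35.8 CPM in Ctrl cultures, a highest value 1.29 times the lowest. SLC30A1 (ENSG00000170385, chr1:211571568-211578742), known as ZnT1, had 87.3, 42.7 and 95.6 CPM in Laminin511-E8, 57.9, 107.4 and 35.7 CPM in Acetazolamide, and 101.6, 76.3 and 97.1 CPM in Ctrl. It varied most of the 8 genes tested, with a highest value 3.01 times the lowest, and the spread lay within the treated groups.

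**Figure D1:**
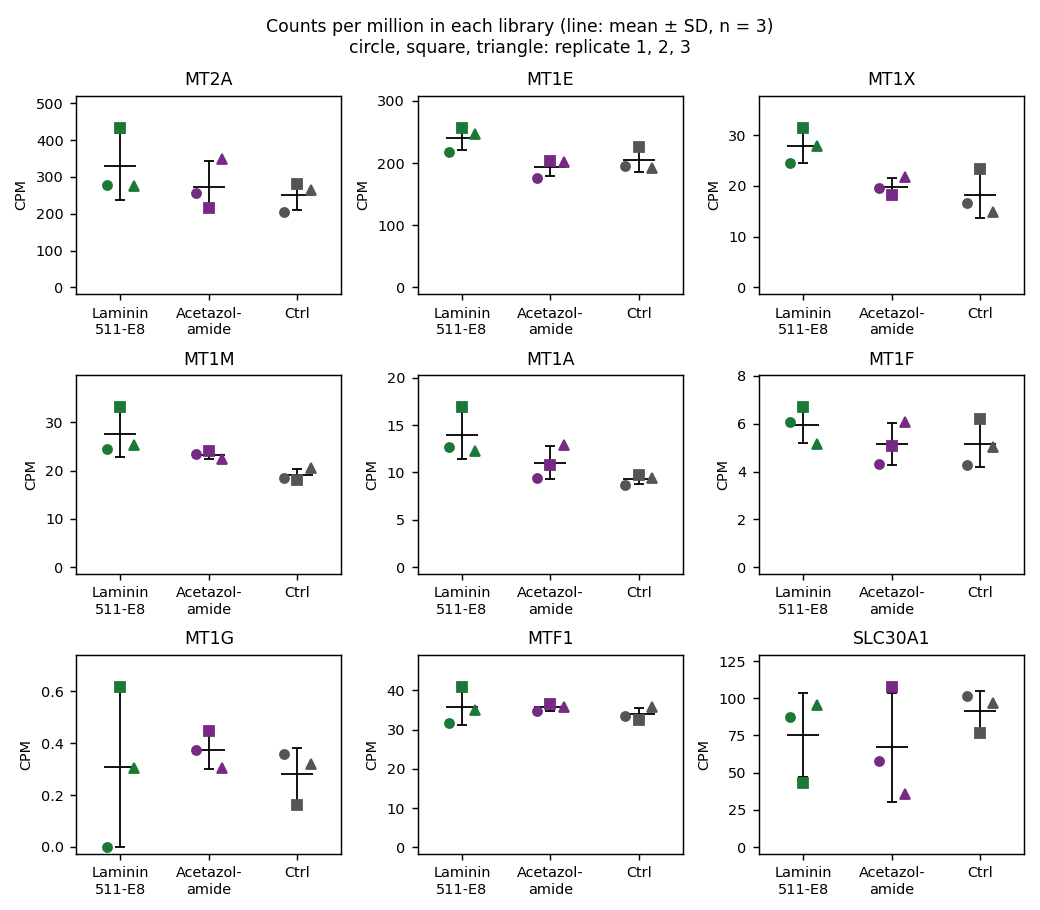
CPM (vertical axes, starting at 0) of the 9 genes in each library, with Laminin511-E8 at the left, Acetazolamide in the middle and Ctrl at the right of each panel. Symbols stand for replicates 1, 2 and 3, and the lines for the group mean with its SD (n = 3). MT1M is highest in all 3 laminin cultures and lowest in all 3 Ctrl cultures, an order lost with the GC trend removed, while SLC30A1 runs between 35.7 and 107.4 CPM with no such order.

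Between genes, levels were compared per kb of exon length. Over the 9 libraries MT2A averaged 219 ± 53.7 CPM per kb and MT1E 202 ± 25.2 CPM per kb (SD, n = 9), and these neighbours did not differ beyond their spread. MT1A followed at 28.8 ± 6.50 CPM per kb and MT1M at 24.8 ± 4.74 CPM per kb, with overlapping spreads. Within libraries, MT1A lay above MT1M except in Acetazolamide replicate 1 (23.7 and 24.8 CPM per kb). SLC30A1 at 14.2 ± 4.84 CPM per kb and MT1X at 12.4 ± 3.05 CPM per kb formed the next pair, also with overlapping spreads. MTF1 at 4.38 ± 0.333 CPM per kb and MT1F at 2.87 ± 0.454 CPM per kb stood apart from each other, and MT1G was lowest at 0.427 ± 0.229 CPM per kb. By CPM without the length, MT2A ranked 646 and MT1E 885 in Ctrl cultures of the 13773 genes that reached 10 counts in each Ctrl library, whereas MT1X ranked 7583 and MT1F 10403.

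The family was thus carried by a pair of genes. MT2A gave 50.4% ± 4.26 and MT1E 38.5% ± 3.95 of the summed metallothionein counts over 9 libraries (SD), MT1M 4.19%, MT1X 3.91%, MT1A 2.03%, MT1F 0.975% and MT1G 0.0579%. Per kb of exon length the leading shares were 44.2% for MT2A and 41.7% for MT1E. The share of MT2A counts was 50.5% ± 4.73 in Laminin511-E8, 51.4% ± 5.97 in Acetazolamide and 49.2% ± 3.27 in Ctrl (SD, n = 3 each), differences smaller than the spread in any group. MT1X made up 4.36% ± 0.323 in Laminin511-E8, 3.78% ± 0.227 in Acetazolamide and 3.59% ± 0.624 in Ctrl. The summed level was 645.6 ± 116.7 CPM in Laminin511-E8, 526.4 ± 75.7 CPM in Acetazolamide and 506.4 ± 57.5 CPM in Ctrl (SD, n = 3 each). Laminin511-E8 replicate 2 was the highest library at 779.5 CPM and Ctrl replicate 1 the lowest at 448.9 CPM, and the laminin range began at 565.1 CPM, against a Ctrl maximum of 563.8 CPM. On TMM-scaled values the laminin range began at 569.2 CPM and Ctrl replicate 2 had 604.0 CPM, so that these groups overlapped. The ratio of MT2A to MT1E was 1.69 in Laminin511-E8 replicate 2 and 1.73 in Acetazolamide replicate 3, the 2 libraries in which low-GC genes were low, and 1.05 to 1.46 in the other 7. The part of the GC trend in that ratio was not tested.

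**Figure D2:**
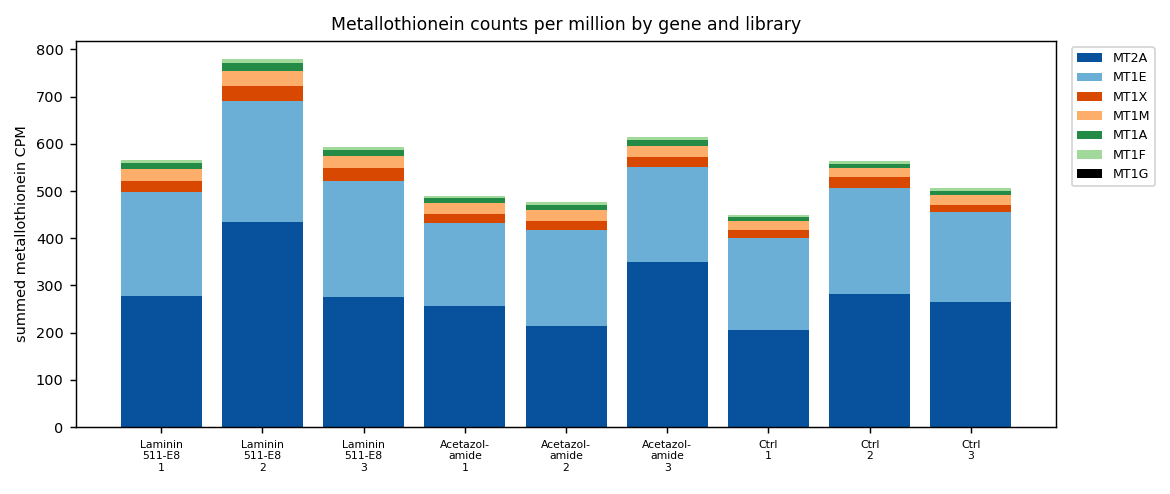
Summed metallothionein CPM (vertical axis) in each of the 9 libraries, split by gene, with Laminin511-E8, Acetazolamide and Ctrl cultures in that order. MT2A and MT1E make up most of each bar, and Laminin511-E8 replicate 2 is the tallest at 779.5 CPM.

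Against Ctrl, laminin 511-E8 cultures had higher estimates for all 6 metallothioneins tested, but none passed an adjusted p of 0.05. By edgeR's quasi-likelihood test the difference was 0.57 on the log2 scale for MT1X (SE 0.19, unadjusted p = 0.0146, adjusted p = 1.00), 0.56 for MT1A (SE 0.17, unadjusted p = 0.0082, adjusted p = 1.00) and 0.51 for MT1M (SE 0.13, unadjusted p = 0.00336, adjusted p = 1.00). These correspond to 1.49-fold for MT1X (95% interval 1.1 to 2.01), 1.47-fold for MT1A (1.13 to 1.91) and 1.42-fold for MT1M (1.16 to 1.74). The estimates were 0.36 (SE 0.22) for MT2A, 0.20 (SE 0.12) for MT1E and 0.18 (SE 0.20) for MT1F. The MT2A estimate rested on Laminin511-E8 replicate 2, without which it was 0.14 against Ctrl and 0.08 against Acetazolamide, in ranges of 0.14 to 0.50 and 0.08 to 0.49 on leaving out single libraries. The median over the 6 was 0.43, beside -0.0033 over all genes tested, of which 49.18% had an estimate above 0. The 6 genes varied together over the 9 libraries (Pearson's r of 0.377 to 0.849 between pairs, TMM-scaled), so they are not independent results. In CPM, Laminin511-E8 replicate 2 was the highest library for each of the 6. Without that culture the 6 estimates ran from 0.11 (MT1F) to 0.50 (MT1X). MTF1 differed by 0.05 (SE 0.12) and SLC30A1 by -0.29 (SE 0.40), an interval for SLC30A1 of 0.441-fold to 1.51-fold.

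In this comparison 0 of the 8 genes passed, and percent called over all 15997 genes was 0%, with 454 genes at an unadjusted p under 0.05. With the GC trend removed, 0 of the 8 passed while 0.33% of 15737 genes did, and the adjusted p was 0.175 for MT1A, 0.361 for MT1X, 0.493 for MT1M and 0.603 for MT2A (edgeR). DESeq2 called 0 of the 8, against 0.131% of all genes, and limma voom called 0 genes, with 439 at an unadjusted p under 0.05. The laminin and Ctrl cultures did not overlap in CPM, with laminin higher, for MT1A, MT1M and MT1X, that is 3 of 8 genes, where 5.48% of all genes tested behaved so. On TMM-scaled CPM this held for MT1A and MT1M, 2 of 8 genes, against 4.69% of all.

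The MT1X estimate depended on Ctrl replicate 2, the Ctrl culture with the highest MT1X level and the largest mitochondrial share. Without it the log2 difference between Laminin511-E8 and Ctrl was 0.83 with an adjusted p of 1.00 (edgeR), and with the GC trend also removed it was 0.78 with an adjusted p of 0.0158. In that last fit, added after seeing the data, 56 of 16320 genes tested passed, and MT1X was 1 of 9 members tested. Over all the alternatives the adjusted p of MT1X in this comparison ranged between 0.0158 and 1, and leaving out single libraries without the GC correction gave log2 differences of 0.42 to 0.83. For MT1M the corresponding range was 0.38 to 0.55, and for MT1A it was 0.42 to 0.64, with no call. The part of the mitochondrial share in the MT1X level was not tested.

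Against Ctrl, 4 of 6 metallothionein estimates in acetazolamide cultures were above 0, with a median of 0.05 on the log2 scale, beside 0.0049 over all genes tested. With the GC trend removed 2 of 6 were above 0, with a median of -0.05 beside -0.0214. The estimates were 0.23 (SE 0.13) for MT1M, 0.18 (SE 0.17) for MT1A, 0.06 (SE 0.22) for MT2A, 0.04 (SE 0.19) for MT1X, -0.07 (SE 0.21) for MT1F and -0.14 (SE 0.12) for MT1E. MTF1 differed by 0.01 (SE 0.12) and SLC30A1 by -0.50 (SE 0.40), with an interval of 0.382-fold to 1.31-fold for SLC30A1. Single libraries moved that SLC30A1 estimate, to -1.02 without Acetazolamide replicate 2 (0.293-fold to 0.828-fold, unadjusted p = 0.0126, adjusted p = 0.481, edgeR) and to -0.19 without Acetazolamide replicate 3, and with the GC trend removed it was -0.41. With the GC trend removed the MT2A and MT1X estimates took the other sign, -0.06 and -0.04. None of the 8 genes passed, where 0% of all genes did with or without the GC correction (edgeR, 292 genes at an unadjusted p under 0.05 without it) and 0.0438% did with DESeq2. The groups did not overlap for MT1M alone, 1 of 8 genes, with Acetazolamide higher, where 5.22% of genes tested behaved so in CPM and 3.21% in TMM-scaled CPM, and they overlapped for MT1M with the GC trend removed. Without the GC correction the 95% intervals ran from 0.746-fold to 1.46-fold for MT2A and from 0.758-fold to 1.39-fold for MT1X. They leave room for a change in either direction.

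Between the treatments, all 6 metallothionein estimates were higher in Laminin511-E8 than in Acetazolamide cultures, as were 50.81% of all genes tested. The median of the 6 was 0.32 on the log2 scale beside 0.0024 over all genes tested. By edgeR the largest was MT1X at 0.54 (SE 0.19, unadjusted p = 0.019, adjusted p = 1.00), followed by MT1A at 0.37 (SE 0.16, unadjusted p = 0.0465, adjusted p = 1.00) and MT1E at 0.35 (SE 0.12, unadjusted p = 0.0187, adjusted p = 1.00). MT2A stood at 0.30 (SE 0.22), MT1M at 0.28 (SE 0.13) and MT1F at 0.25 (SE 0.20), while MTF1 was at 0.04 (SE 0.12) and SLC30A1 at 0.21 (SE 0.40). None of the 8 genes passed, beside 0% of all genes (374 at an unadjusted p under 0.05), 0.159% with the GC trend removed and 0.119% with DESeq2. MT1X passed where the GC trend was removed and Ctrl replicate 2 left out, at 0.57 with an adjusted p of 0.0300, in a range of 0.03 to 1 over the alternatives. In that fit, added after seeing the data, 30 of 16320 genes tested passed. The groups did not overlap, with laminin higher, for MT1E, MT1M and MT1X in CPM, 3 of 8 genes where 2.11% of all did, and for MT1A as well in TMM-scaled CPM, 4 of 8 where 3.01% of all did. The separations of MT1E and MT1M were lost with the GC trend removed, since Acetazolamide replicate 2 then lay above Laminin511-E8 replicate 2 for MT1E (log2 deviations of 0.07 in the laminin culture and 0.10 in the acetazolamide culture) and above all laminin cultures for MT1M. The comparisons of each treatment with Ctrl share the Ctrl cultures, and this one shares the treated cultures with them, so the 3 sets of estimates are not independent.

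**Figure D3:**
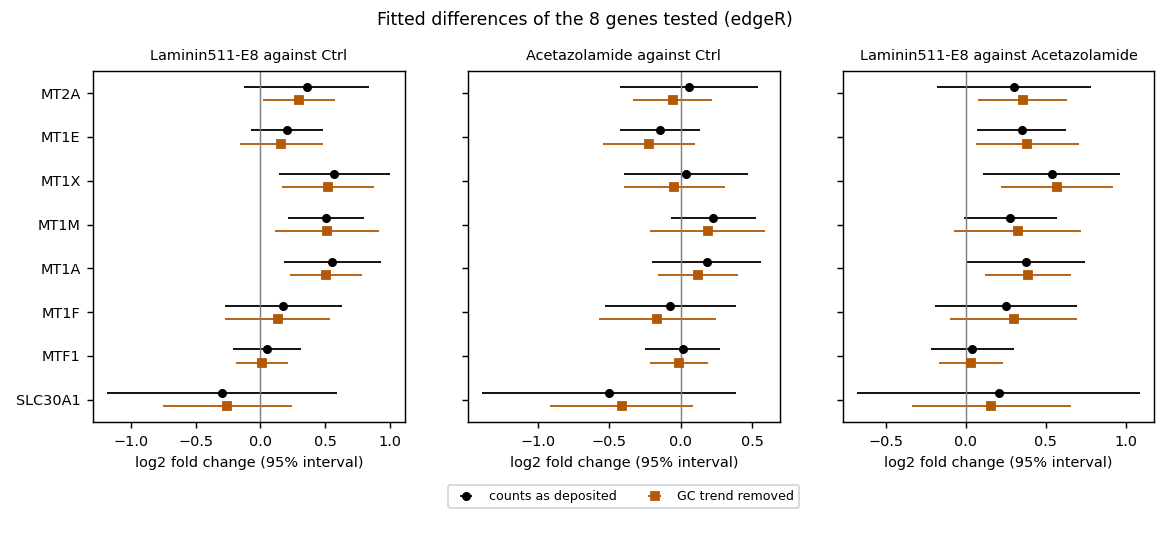
Log2 fold changes (horizontal axes) with 95% intervals for the 8 genes tested, from edgeR on counts as deposited (circles) and with the GC trend removed (squares), for Laminin511-E8 against Ctrl, Acetazolamide against Ctrl and Laminin511-E8 against Acetazolamide. The 6 metallothioneins lie above 0 in both laminin panels, and the interval of SLC30A1 is the widest in each panel.

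SLC30A1, with a GC content of 38.0%, deviated in each library in the direction of that library's low-GC genes. Its log2 deviation from the mean of 9 libraries followed the median deviation of the 1775 genes under 40% GC, of which it is one, with Pearson's r = 0.974 (exact permutation p = 0.000127, adjusted p = 0.00101 over 8 genes examined) and Spearman's rho = 0.933 (exact permutation p = 0.00075, adjusted p = 0.006, n = 9). Without the 2 libraries farthest from the median, Acetazolamide replicate 3 and Laminin511-E8 replicate 2, r was 0.875. How many of the 1775 genes reach such an r was not examined, so the relation is not shown to be particular to SLC30A1. The permutation also treats the 9 libraries as exchangeable between groups. MT2A, at a GC content of 56.1%, ran the other way with r = -0.735 (exact permutation p = 0.0245, adjusted p = 0.098) and rho = -0.6 (exact permutation p = 0.0968, adjusted p = 0.387, n = 9), and r was -0.317 without those 2 libraries, so that this relation rests on them. The other 6 genes had r between -0.435 and 0.128, with an adjusted p of at least 0.655 by the exact permutation test (n = 9). With the GC trend removed, the SE of SLC30A1 in Acetazolamide against Ctrl was 0.22, against 0.40 before. SLC30A1 was still lowest in the same 2 libraries after the correction. Its deviation was then -0.525 in Acetazolamide replicate 3 and -0.458 in Laminin511-E8 replicate 2, against -1.085 and -0.824 before. Whether the corrected estimates still carry part of that pattern was not tested.

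**Figure D4:**
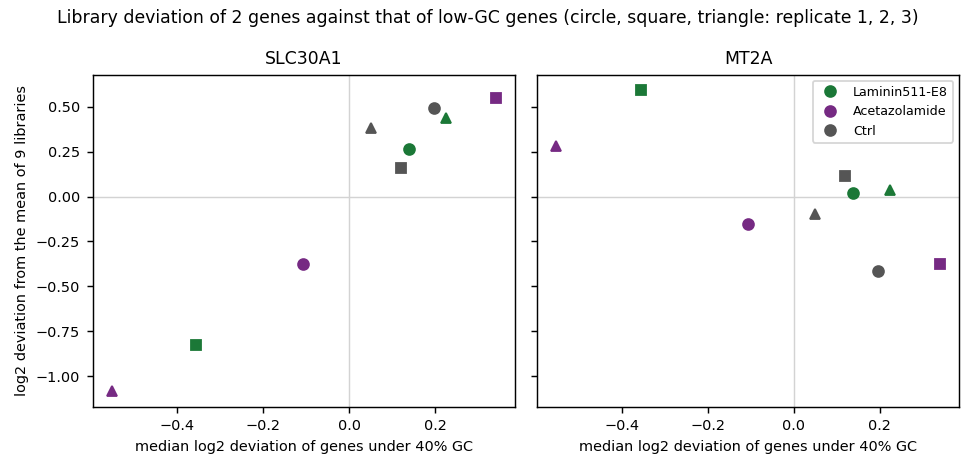
Log2 deviation of SLC30A1 (left) and MT2A (right) from the mean of 9 libraries (vertical axis) against the median deviation of genes under 40% GC in the same library (horizontal axis). Colours mark Laminin511-E8, Acetazolamide and Ctrl, and symbols replicates 1, 2 and 3. SLC30A1 rises along the axis (r = 0.974) and MT2A falls along it (r = -0.735), with Acetazolamide replicate 3 and Laminin511-E8 replicate 2 at the far left.

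The metallothionein genes are near copies, which bears on how reads were assigned. Their coding sequences of 186 bases were 88.7% to 95.2% identical between pairs in the GENCODE 29 transcripts. The share of 50-base words of a gene's transcripts that also occur in another gene was 3.02% for MT2A, 7.1% for MT1E, 5.76% for MT1A, 9.87% for MT1M, 1.22% for MT1F, 16.5% for MT1G and 18.3% for MT1X. With words of 75 bases it was 0% for MT2A, MT1A and MT1F, 0.231% for MT1M, 1.42% for MT1E, 5.73% for MT1G and 14.3% for MT1X. The gene that shared the most words with MT1X was ENSG00000259827, which overlaps MT1X on the same strand and had 0 counts in all libraries. No source used here says how reads that match several genes were counted, so the levels of MT1X and MT1G are the least certain of the family, and the words of SLC30A1 were not shared at all (0%).

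Of 14 other metallothionein genes and pseudogenes, 5 had 0 counts in every library and 1 reached 10 counts in all 9. That gene, MT1L, a pseudogene of the cluster, had 9.04, 14.0 and 8.43 CPM in Laminin511-E8, 8.64, 6.46 and 8.79 CPM in Acetazolamide, and 7.18, 7.16 and 9.58 CPM in Ctrl, and the groups overlapped. MT1L and MT1P3 were tested and 0 of 2 passed in any comparison, with MT1L at 0.37 (SE 0.21) on the log2 scale and MT1P3 at 0.38 (SE 0.56) in Laminin511-E8 against Ctrl. The largest estimate of MT1P3 was 0.52 (SE 0.54) in Acetazolamide against Ctrl. MT1H had 4 counts, MT1DP 60 counts and MT3, the form known from brain, 14 counts over the 9 libraries.

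Among the other genes of the SLC30 family of zinc transporters, 5 of 9 were tested and 0 passed in either direction in the 3 comparisons, with or without the GC correction. The most abundant were SLC30A9 at 117 CPM, SLC30A6 at 79.1 CPM and SLC30A5 at 70.6 CPM over the 9 libraries, and SLC30A6 and SLC30A5 are known to form a complex that loads zinc into the secretory pathway. Per kb, SLC30A9 had 15.9 ± 3.37 CPM in Laminin511-E8, 15.2 ± 4.72 CPM in Acetazolamide and 17.6 ± 1.24 CPM in Ctrl (SD, n = 3 each), close to SLC30A1. SLC30A8 and SLC30A10 had 0 counts, which allows up to 0.0759 to 0.239 CPM depending on the library, counting error only. Against Ctrl the median log2 difference of the 5 was -0.17 in Laminin511-E8 (-0.0033 over all genes tested) and -0.19 in Acetazolamide (0.0049 over all genes). With the GC trend removed these medians were -0.12 and -0.11, beside -0.0106 and -0.0214 over all genes, and the largest single estimate was -0.30 for SLC30A7 in Acetazolamide, with a GC-corrected value of -0.13.

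Of the SLC39 family, which brings zinc into the cytosol, 8 of 14 were tested and 0 passed in any comparison in either direction. Their median log2 difference from Ctrl was -0.04 in Laminin511-E8 and -0.10 in Acetazolamide. With the GC trend removed these medians were -0.03 and -0.14, beside -0.0106 and -0.0214 over all genes. In Acetazolamide 0 of the 8 corrected estimates were above 0, where 43.15% of all genes were. SLC39A14 had 187 CPM, SLC39A6 148 CPM and SLC39A9 130 CPM, and per kb SLC39A6 was highest, at 40.3 ± 6.69 CPM in Laminin511-E8, 38.9 ± 8.83 CPM in Acetazolamide and 41.4 ± 1.51 CPM in Ctrl (SD, n = 3 each). SLC39A8, which carries zinc and manganese, was at 0.43 (SE 0.23) on the log2 scale in Laminin511-E8 against Acetazolamide, and SLC39A11 at -0.40 (SE 0.13, unadjusted p = 0.0106, adjusted p = 1.00, edgeR). SLC39A11 was also at -0.34 (SE 0.13) in Laminin511-E8 against Ctrl, and its cultures had 7.74 ± 0.400 CPM in Laminin511-E8, 10.5 ± 0.630 CPM in Acetazolamide and 9.56 ± 0.658 CPM in Ctrl (SD, n = 3 each). SLC39A7, an importer of the secretory pathway, had 1 count in 9 libraries, which is no measure of its expression while the treatment of multiply matching reads is unknown.

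**Figure D5:**
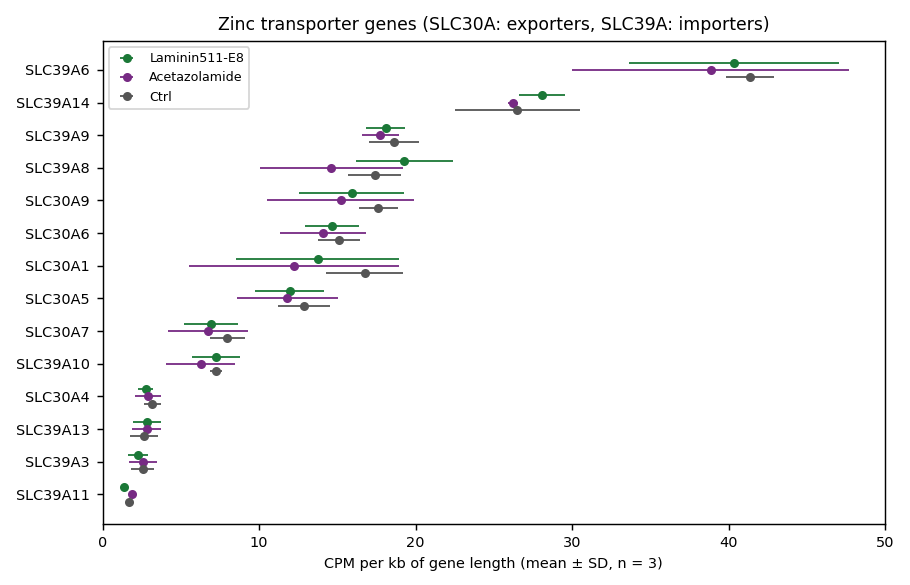
Levels per kb of gene length (horizontal axis, CPM per kb, mean with SD, n = 3) of the zinc transporter genes that reached 10 counts in all libraries, with Laminin511-E8, Acetazolamide and Ctrl from top to bottom for each gene. SLC39A6 is the highest, SLC30A1 lies among SLC30A6, SLC30A9 and SLC30A5, and the intervals of the groups overlap for most genes.

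Other genes tied to metallothionein control were given from lists. Of 10 genes of the metal and oxidative stress response, 7 were tested and 0 passed in the 3 comparisons, with TXNRD1 (475 CPM), HSPH1 (261 CPM) and DNAJB1 (147.6 CPM) the most abundant. HMOX1, the heme oxygenase that heavy metals also induce, was at 0.23 (SE 0.29) in Laminin511-E8 against Ctrl and 0.19 (SE 0.29) in Acetazolamide against Ctrl on the log2 scale. The heat shock genes HSPA1A and HSPA1B, near-identical copies, had 1 and 3 counts in all, which the unstated counting of reads matching both makes no measure of their expression. All 11 copper genes were tested and 0 passed, led by SOD1 (194.5 CPM), SLC31A1 (93.4 CPM) and SCO1 (72.2 CPM), and SCO2 had the largest estimate, 0.37 (SE 0.29) in Acetazolamide against Ctrl.

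Of 8 glucocorticoid-induced genes, all were tested and 0 passed by edgeR on the counts as deposited. FKBP5, a chaperone of the glucocorticoid receptor complex, had 2147 CPM over the 9 libraries, ERRFI1 490 CPM and KLF9 237 CPM. TSC22D3, known as GILZ, fell in Laminin511-E8 against Ctrl once the GC trend was removed, by 0.50 on the log2 scale (SE 0.08, adjusted p = 0.022, edgeR), 1 of 8 genes where 0.33% of all genes passed. Its level was 91.3 ± 13.4 CPM in Laminin511-E8, 130.2 ± 13.6 CPM in Acetazolamide and 122.1 ± 16.3 CPM in Ctrl (SD, n = 3 each), and without the correction the difference from Ctrl was -0.45 (SE 0.13, adjusted p = 1.00, edgeR). The corrected call held in 3 of the 9 fits that leave out 1 library (Acetazolamide replicate 2, Acetazolamide replicate 3 or Ctrl replicate 2) and was lost in the other 6, with log2 differences of -0.57 to -0.46 and an adjusted p of up to 0.133. DUSP1, a phosphatase that inactivates MAP kinases, ran the other way, at 165.1 ± 13.6 CPM in Laminin511-E8, 195.1 ± 13.5 CPM in Acetazolamide and 132.2 ± 11.3 CPM in Ctrl (SD, n = 3 each), and these groups did not overlap. In CPM, 5.22% of genes tested separated with Acetazolamide above Ctrl and 5.48% with Laminin511-E8 above Ctrl. Laminin511-E8 lay below Acetazolamide in this way for 614 of 15997 genes. The DUSP1 difference in Acetazolamide against Ctrl was 0.50 (SE 0.10, adjusted p = 1.00 by edgeR, 0.675 with the GC trend removed and 0.00453 by DESeq2, which called 0.0438% of all genes). The GC-corrected estimates of the 8 genes were below 0 for 8 in Laminin511-E8 against Acetazolamide and for 5 in Laminin511-E8 against Ctrl, with medians of -0.11 beside 0.0094 and -0.09 beside -0.0106 over all genes.

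The carbonic anhydrases, zinc enzymes and the targets of acetazolamide, were led by CA9 (35.4 CPM), CA12 (17.4 CPM) and CA2 (13.8 CPM), and 7 of 15 were tested. In Acetazolamide against Ctrl 0 passed, with or without the GC correction, and CA12 was at -0.21 (SE 0.13) on the log2 scale. CA12 was higher in Laminin511-E8 than in Acetazolamide cultures with the GC trend removed, by 0.64 (SE 0.09, adjusted p = 0.0108, edgeR), 1 of 7 genes where 0.159% of all genes passed. Its level was 21.8 ± 2.54 CPM in Laminin511-E8, 14.4 ± 0.753 CPM in Acetazolamide and 16.0 ± 1.45 CPM in Ctrl (SD, n = 3 each), and without the correction the estimate was 0.63 (SE 0.12, adjusted p = 0.714, edgeR), while DESeq2 called it (adjusted p = 0.00181, where 0.119% of all genes passed). The corrected call was lost without Acetazolamide replicate 1 or without any 1 of the laminin replicates, with log2 differences of 0.61 to 0.69 over the 9 fits and an adjusted p of up to 0.0882. Of the 5 cholangiocyte markers tested, 1 (KRT19) passed with the correction, where 0.33% of all genes passed against Ctrl and 0.159% against Acetazolamide, at -0.46 (adjusted p = 0.0123) in Laminin511-E8 against Ctrl and -0.49 (adjusted p = 0.0108) against Acetazolamide (edgeR), calls that held in 6 and 5 of the 9 fits that leave out 1 library. They were lost without Laminin511-E8 replicate 1 or 3 in both, without Ctrl replicate 3 in the first (adjusted p = 0.051), and without Laminin511-E8 replicate 2 or Acetazolamide replicate 1 in the second, at an adjusted p of up to 0.109 and 0.112. Without the correction KRT19 was at -0.45 (SE 0.20) and -0.60 (SE 0.20), each with an adjusted p of 1.00 (edgeR). The corrected estimates of all 5 markers were below 0 in both laminin comparisons, with medians of -0.46 against Ctrl and -0.21 against Acetazolamide.

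The genes most like MT2A across the 9 libraries, by Pearson's r of TMM-scaled log2 CPM among 15997 genes and leaving out metallothioneins, were CCDC154 (r = 0.977), PHF7 (0.966), CKMT2-AS1 (0.95), AMER1 (0.949) and ZNF589 (0.935). Those most like MT1X were CTSL (r = 0.977), the lysosomal protease cathepsin L, CASP4 (0.966), SRGAP1 (0.964), CDC26P1 (0.96) and C1QBP (0.944). The values share their scaling and depth and are given as a description. After the GC correction 1 of the 5 genes stayed among the top 5 for each, CCDC154 at 0.928 for MT2A and CTSL at 0.985 for MT1X.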

How the data were processed

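RNA sequencing of 9 H69 libraries was analysed, from poly(A) RNA. For each group the 3 cultures with the best RNA integrity out of 4 had been chosen by the authors. The deposited values are whole-number read counts for each gene, without normalization by the authors. Tools named in the submitters' notes are HTSeq 0.11.0, HISAT2 2.2.1, Trimmomatic 0.39 and FastQC 0.11.9, with the build GRCh38. For the gene annotation, the strand setting and reads matching several genes, the entry is: not given in the sources used here. There were 0 columns without a sample. Of 61541 identifiers, 61369 were matched to symbols and 159 more through GENCODE 29, whose exon lengths and GC content were used.

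CPM was taken on the total count. Comparisons used edgeR 4.0.16 in R 4.3.3 (TMM, filterByExpr, robust quasi-likelihood test, two-sided) on all 9 libraries and 15997 genes, adjusted by Benjamini-Hochberg over all genes with a threshold of 0.05. The study's methods name no test for these libraries. The GC trend was removed with loess offsets (span 0.3) for 15737 genes. The script was tested on simulated data. Alternatives were other scalings and filters, DESeq2 1.42.0, limma 3.58.1, a replicate block, 6 libraries and leaving out each library. Leaving out libraries with the GC correction was added after seeing the data. No pair of libraries agreed within sampling noise.

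The 9 genes and the lists were chosen with earlier results of these data known. The genes named are the 9, the 5 most like MT2A and MT1X, and of each list the 3 most abundant, any that passed and the largest estimate tested. MT1H, MT3, SLC30A8, SLC30A10, SLC39A7, SLC39A11, HSPA1A, HSPA1B and the cell type markers are named outside that rule, after their values were seen. Where a count is 0, the limit given is 3 counts. Sequences come from RefSeq on GRCh38.p14. Proteins were not used here. One listed marker gene is not reported here.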

Additional observations from a re-analysis of the deposited data

How the results depend on the processing

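Of the log2 differences of the 8 genes, 232 of 240 values under the alternatives with all libraries or another tool kept their sign and side of the threshold, as did 202 of 216 with a library left out and 184 of 216 with a library left out and the GC trend removed. The 8 sign changes all lay in Acetazolamide against Ctrl: with the GC trend removed -0.058 for MT2A, -0.044 for MT1X and -0.014 for MTF1, with the replicate block added to that correction -0.042 for MT2A, -0.021 for MT1X and -0.014 for MTF1, and with no filter on low counts -0.0031 for MT1X and -0.0245 for MTF1. Leaving out a library gave ranges across 0 for MT1F (-0.31 to 0.13), MT1M (-0.074 to 0.37), MT1X (-0.20 to 0.29), MT2A (-0.18 to 0.20) and MTF1 (-0.054 to 0.030) in Acetazolamide against Ctrl, for MT1F (-0.0054 to 0.38) and MTF1 (-0.085 to 0.10) in Laminin511-E8 against Ctrl, and for MTF1 (-0.069 to 0.11) and SLC30A1 (-0.11 to 0.72) in Laminin511-E8 against Acetazolamide. The cause was not tested.

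Counts of genes passing were 0 in each comparison under the main settings, and by comparison 21 (Laminin511-E8 against Ctrl), 7 (Acetazolamide against Ctrl) and 19 (Laminin511-E8 against Acetazolamide) with DESeq2, and 52, 0 and 25 with the GC trend removed. With a library left out they were 0, or with the GC correction 2 to 67, 0 to 3 and 0 to 30. The number of the 8 genes passing was 0 to 1, the 1 being MT1X without Ctrl replicate 2 and with the GC correction. The lowest count in Laminin511-E8 against Ctrl, 2, came without Laminin511-E8 replicate 1 and the highest, 67, without Acetazolamide replicate 2.

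No source used here states that the replicate numbers pair the cultures. Same-numbered libraries deviated from their group means with r between -0.649 and 0.238, and differently numbered ones with r between -0.396 and 0.66. These values also carry the GC trend, so they cannot decide whether the numbers pair the cultures. With the replicate block 0 genes passed in each comparison, and with the block and the GC correction 6, 0 and 0.

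Per kb of length, the shares became 44.2% for MT2A, 5.84% for MT1A, 5.07% for MT1M, 2.51% for MT1X, 0.588% for MT1F and 0.0879% for MT1G, which follows from the lengths. Of the 5 genes most like MT2A and of the 5 most like MT1X, 1 each was shared after the GC correction. With 3 cultures a group, the SLC30A1 estimate in Acetazolamide against Ctrl ranged between -1.02 and -0.19 on leaving out single libraries.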
